A study of Cucumis melo with 6 samples.

Results

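Overlapping tail-to-tail gene pairs are pairs of genes on opposite strands that are read toward each other and whose annotated 3' ends run past one another. They were chosen by position alone. The plus-strand gene starts first, the minus-strand gene begins inside it on the map and ends beyond it, so neither gene lies within the other. The rule found 578 pairs made of 1132 genes, which is 4.0% of the 28299 genes counted and 5.14% of their exon bases. Leaves of 2 melon (Cucumis melo) genotypes were compared, with 3 libraries each, all from the CharMONO line of the Charentais cantaloupe type grown at 27 °C by day and 21 °C at night. WT libraries came from the unmutated monoecious line, which bears male and female flowers separately. The lhp1ab libraries came from a double mutant of the same line with EMS-induced changes in Cmlhp1a (G1970A) and Cmlhp1b (C1930T), where positions are counted in genomic sequence from the ATG. No label says whether a library stands for 1 plant, a pool or a repeated extract, and p-values therefore reflect only how these 6 libraries vary. The gene models carry identifiers without names or products, so the targeted genes, leaf marker genes and the roles of the pairs' genes were not looked up, and the pairs are described by position, structure and reads.

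In plants, LHP1 proteins use a chromodomain to bind the histone mark laid down by Polycomb complexes over silent genes. Where exons of converging genes overlap, each transcript carries toward its 3' end a stretch complementary to the other. Such natural antisense transcripts can pair into double-stranded RNA that is cut into small RNAs in Arabidopsis. In Arabidopsis, antisense transcripts that start at the 3' end of the flowering repressor gene FLC take part in its silencing, and LHP1 is needed to keep that gene silent after cold. The library kit records the strand of each poly(A) RNA, so reads of the 2 genes of a pair were counted apart, each gene being the antisense partner of the other.

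The overlaps were mostly overlaps of exons. The overlap of the gene spans ranged from 3 to 8182 bp with a median of 619 bp, and exons overlapped in 561 of the 578 pairs, by a median of 242 bp over all pairs and by up to 4256 bp. Measured against the gene with fewer exon bases, the exon overlap had a median of 32.7%. It was under 25% in 248 pairs, from 25% to under 50% in 141 and 50% or more in 189. The genes were longer and more often spliced than usual. Their median exon length was 1623 bp against 1161 bp over all genes, with a median of 5 exons against 3, and 10.6% had a single exon against 26.2%. In 427 pairs the genes overlapped nothing but each other, in 81 pairs a gene also overlapped another on its own strand and can share reads with it, and 16 genes belonged to more than 1 pair. Pairs lay on all 12 numbered chromosomes, from 30 on chromosome 5 to 66 on chromosome 11.

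In most pairs reads of both genes were detected in leaf, though no wrong-strand rate was measured. Both genes reached at least 0.5 CPM (the gene's counts scaled to a common library total) in all 3 WT libraries in 419 pairs (72.5%) and in all 3 lhp1ab libraries in 423 pairs (73.2%). Over all 28347 pairs of neighbouring or overlapping genes the shares were 43.9% and 44.6%. Tail-to-tail neighbours that lie apart by up to 1 kb were close to the overlapping pairs in this respect, with 69.9% in WT and 71.2% in lhp1ab. A single gene was detected in WT in 24.7% of those neighbours and none in 5.46%, and the overlapping pairs had none in 14.5%. These shares were not tested against each other. A single gene was detected in 75 overlapping pairs in WT, the plus-strand gene in 34 and the minus-strand gene in 41.

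Detection of both genes was largely kept in the mutant. Both genes were detected in both genotypes in 405 pairs. The second strand came above the detection limit only in lhp1ab in 18 pairs and only in WT in 14 pairs, and no pair went from both genes to none or the reverse. The genes of all pairs together took 4.21% ± 0.011 of the WT counts (SD, n = 3) and 4.14% ± 0.0841 of the lhp1ab counts (SD, n = 3), and the libraries of the genotypes overlapped. WT libraries held 20551374 to 22366054 counts each and lhp1ab libraries 15335390 to 17647188. A count of 0 allows up to 3 counts, at most 0.143 CPM in WT and 0.196 CPM in lhp1ab (counting error only).

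The 2 genes of a pair mostly differed in level by a few fold. Levels are given as CPM per kb of exon, so that genes of different length can be set side by side. Among pairs with both genes detected, the median difference was 3.04-fold in WT and 3.34-fold in lhp1ab. All 3 libraries showed a difference over 2-fold in 254 of 419 pairs in WT and 264 of 423 in lhp1ab, over 10-fold in 70 and 62 pairs, and over 100-fold in 3 pairs of each genotype. Neither strand dominated: the plus-strand gene was the higher one in all WT libraries in 187 pairs and the minus-strand gene in 211. Over all neighbouring pairs the median difference was 3.19-fold in WT and 3.29-fold in lhp1ab.

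**Figure D1:**
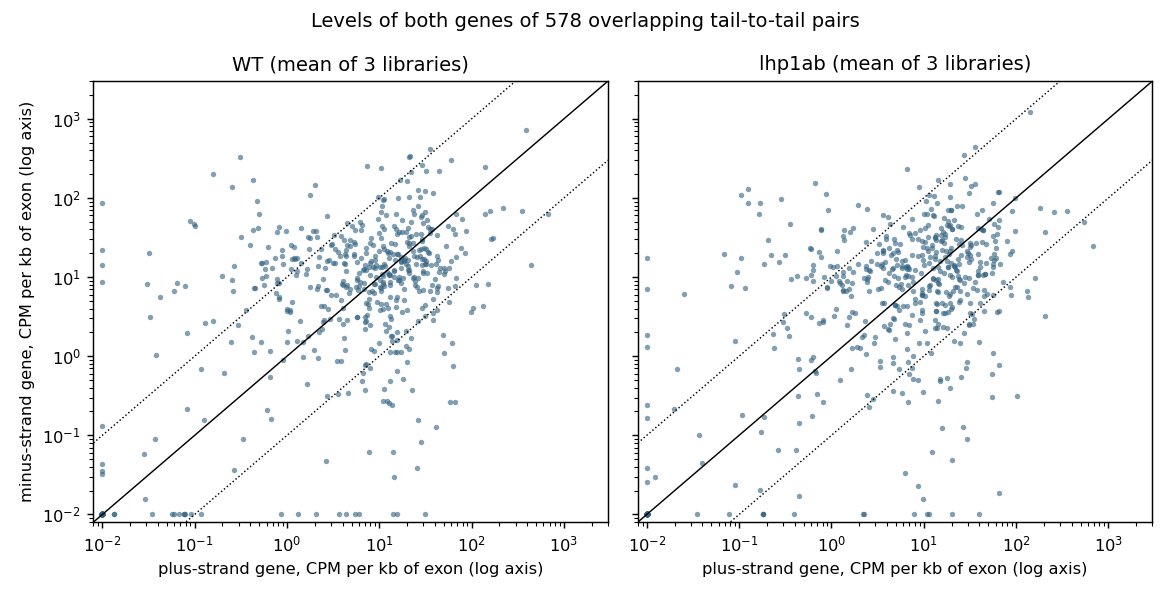
Mean level of the minus-strand gene against that of the plus-strand gene in the 578 pairs, in WT and in lhp1ab, in CPM per kb of exon on log axes (points, means of 3 libraries; levels under 0.01 are drawn at 0.01). The solid line marks equal levels and the dotted lines 10-fold differences; most points with both genes expressed fall between the dotted lines, on both sides of the solid line, in both genotypes.

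The levels of the 2 strands were only loosely related. Across pairs, Spearman's rho of the mean log2 levels was 0.16 in WT (419 pairs) and 0.18 in lhp1ab (423 pairs), against 0.046 and 0.039 for tail-to-tail neighbours apart, 0.16 and 0.092 for same-strand neighbours and 0.088 and 0.084 over all pairs. The points share their libraries and their locus, and no test was made. In single libraries, over the 405 pairs detected throughout, the median absolute log2 ratio was 1.574, 1.621 and 1.598 in WT and 1.75, 1.53 and 1.91 in lhp1ab. The lhp1ab values spread more widely and enclosed those of WT.

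The genes of these pairs changed in lhp1ab in a share near that of all genes. Of the 1132 genes, 929 passed the filter on low counts, and 352 of them (37.9%) were called higher in lhp1ab and 321 (34.6%) lower (edgeR quasi-likelihood test, adjusted p threshold 0.05 over all genes tested). Over all 17988 genes tested, 36.9% were higher and 38.5% lower, so that 72.4% of the pairs' genes were called against 75.5%. In bulk leaf, fewer cells of a type and less RNA per cell cannot be told apart. Changes tested to exceed 1.5-fold were found in 186 genes upward and 157 downward (36.9% in all), against 20.9% and 19.3% of all genes (40.1%). Called changes of at least 2-fold concerned 27.7% of the pairs' genes against 31.1% of all genes, and those of at least 4-fold 9.47% against 11.9%. The median absolute log2 fold change was 0.56 here and 0.60 over all genes tested.

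Which direction held more calls rested on the scaling: with library totals alone 330 genes were higher and 338 lower. The more and the less abundant gene of a pair changed to a like extent. In the 438 pairs with both genes tested, the more abundant gene was called in 334 (76.3%) and the less abundant in 295 (67.4%), with median absolute log2 fold changes of 0.54 and 0.57. The less abundant gene had fewer reads, with a median level of 6.50 against 20.7 CPM per kb.

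Both genes moved together or apart in shares near those of neighbouring genes at large. Of the 438 pairs with both genes tested, both were higher in 78 (17.8%), both lower in 69 (15.8%) and they went in opposite directions in 98 (22.4%). A single gene was called in 139 (31.7%) and none in 54 (12.3%). Over all 13544 neighbouring pairs tested, the shares were 15.7% for both higher, 17.3% for both lower, 25.4% for opposite directions, 34.2% for a single gene and 7.44% for none. Among pairs with both genes called, the direction was shared in 147 of 245 overlapping pairs (60.0%) and in 56.5% of all neighbouring pairs. It was shared in 315 of 614 tail-to-tail neighbours apart (51.3%), in 70 of 122 head-to-head neighbours (57.4%) and in 418 of 664 same-strand neighbours (63.0%), these 3 kinds with gaps of up to 1 kb, and in 53.7% of neighbours over 1 kb apart. Neighbours that overlap in another way shared it in 362 of 391 pairs (92.6%). It was shared in 156 of 161 of them on the same strand (96.9%), where reads in shared exons count for both genes, and in 206 of 230 on opposite strands (89.6%), with 1 gene inside the other or with overlapping 5' ends. Spearman's rho of the log2 fold changes was 0.23 in the overlapping tail-to-tail pairs, -0.0026 in tail-to-tail neighbours apart, 0.080 in head-to-head and 0.28 in same-strand neighbours, 0.79 in the other overlaps and 0.14 over all pairs. The differences between arrangements were not tested.

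The partner of a strongly changed gene was called more often on the same side than on the opposite one. Each pair was counted from the side of each of its genes, so a pair can enter more than once and the cases are not independent. When a gene was higher, its overlapping partner was higher in 48.0% and lower in 30.2% of cases. When it was lower, the partner was lower in 45.4% and higher in 32.2%. For genes called at least 4-fold higher the partner was higher in 24 of 39 and lower in 9, and for those at least 4-fold lower it was lower in 28 of 45 and higher in 10. In tail-to-tail neighbours apart, the partner of a gene at least 4-fold higher was higher in 33.3% and lower in 42.7% of 96 cases, and that of a gene at least 4-fold lower was lower in 41.6% and higher in 38.6%. Same-strand neighbours were close to the overlapping pairs, with partners on the same side in 57.1% and on the opposite side in 20.5% of 112 genes at least 4-fold higher, and in 53.7% and 24.4% of 123 at least 4-fold lower. Head-to-head neighbours had partners on the same side for 7 and on the opposite side for 3 of 12 genes at least 4-fold higher, and for 5 and 6 of 18 at least 4-fold lower. The pattern was thus seen in same-strand neighbours as well.

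Sharing of direction went with the extent of the exon overlap. Where exons overlapped by under 25% of the shorter gene, both genes moved the same way in 56 of 116 pairs with both called (48.3%). From 25% to under 50% it was 36 of 53 (67.9%), and at 50% or more 55 of 76 (72.4%). Spearman's rho of the log2 fold changes was 0.046 over 204 pairs, 0.29 over 109 and 0.47 over 125. Tested to exceed 1.5-fold in both genes, 17 pairs went the same way and 12 apart in the first class, 11 and 4 in the second, and 24 and 5 in the third. Over the 15 versions of the gene test, which include each library left out, the same-direction share lay between 47.4% and 58.6%, between 64.6% and 73.3% and between 72.0% and 82.8% in the 3 classes. Among genes that overlap only each other it was 51.6%, 69.8% and 71.9%. The level of the weaker gene moved with the class too, with medians of 4.62, 6.18 and 9.49 CPM per kb, and its part in the result was not tested. The classes were drawn up after the data were seen.

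**Figure D2:**
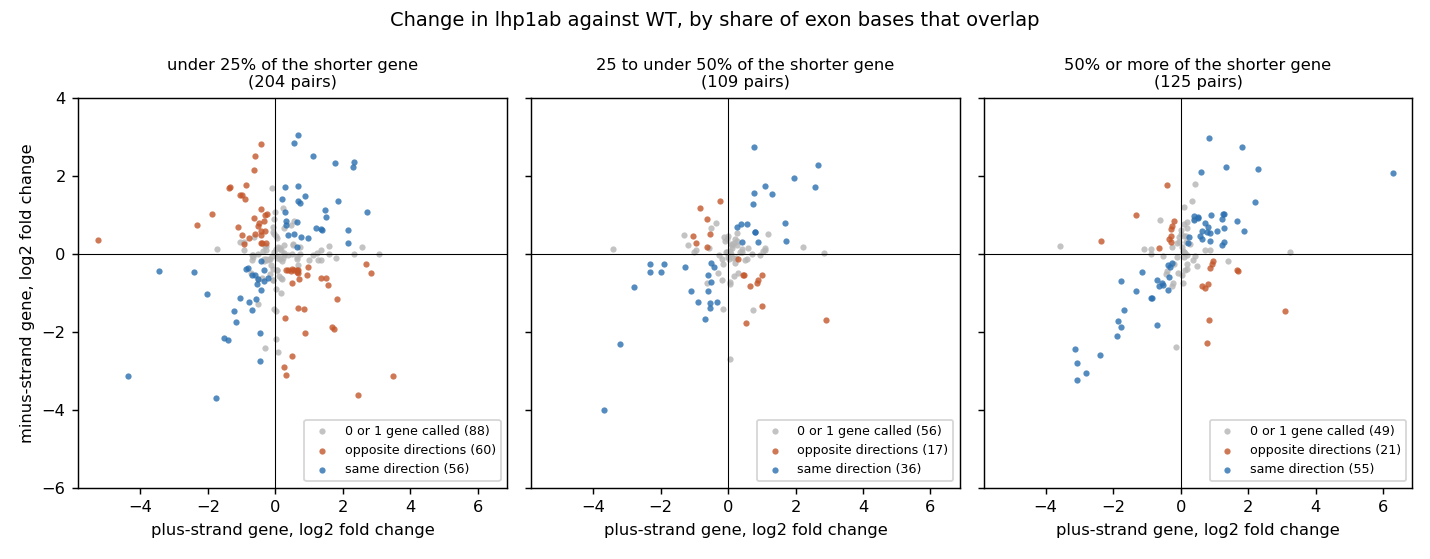
Log2 fold change (lhp1ab against WT) of the minus-strand gene against that of the plus-strand gene in the 438 pairs tested, in 3 panels by the share of the shorter gene's exon bases that overlap. Points are pairs, coloured by whether both genes were called and in which directions; same-direction pairs rise from 56 against 60 opposite ones in the left panel to 55 against 21 in the right panel.

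The reads on the weaker strand varied widely in pairs with an abundant gene. Of 118 pairs with exon overlap and a gene of at least 1000 counts in every library, the median partner had 17.96% of its counts, and in 15 the partner was under 1% of it in every library. In the 2 pairs with a gene of at least 10000 counts in every library, the lowest partner value was 4.03%. The pairs with the most counts on 1 strand among the 15 lay on chromosomes 5 and 4, and were chosen for their weak partner. On chromosome 5, the plus-strand gene spans 6296634 to 6299019 and the minus-strand gene 6297917 to 6301249, with 913 bp of shared exon bases among the 2228 of the minus-strand gene. That minus-strand gene had 9310, 8541 and 11190 counts in WT and 3356, 3306 and 2690 in lhp1ab, while its partner had 7, 1 and 5 and 0, 6 and 2. Summed over the 6 libraries, the partner held 0.0547% of the pair's counts, a share that is low by the choice of the pair. On chromosome 4, the plus-strand gene spans 19580858 to 19582713 and the minus-strand gene 19582656 to 19585115, with 58 bp of shared exon bases among 1332. The minus-strand gene had 9170, 9118 and 10110 counts in WT and 2901, 3072 and 2459 in lhp1ab against 9, 7 and 10 and 2, 4 and 2 for its partner. That partner held 0.0922% of the pair's counts, summed and chosen in the same way. Both minus-strand genes fell, by 1.22 and 1.34 on the log2 scale (SE 0.09 and 0.063; edgeR adjusted p = 2.78e-07 and 9.78e-09), and both partners were too weak to be tested. Among exon overlaps of 50% or more, pairs whose mean levels differed by under 10-fold went the same way in 54 of 72 cases with a rho of 0.57 over 118 pairs, and in the 7 pairs with a wider gap 1 of 4 did. Over all overlaps, 72 pairs had mean levels 10-fold or more apart, where 18 of 34 went the same way (52.9%) and rho was -0.042. No wrong-strand rate was measured, and the part of such reads in the sharing of direction was not tested.

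The length of the overlap in bp gave a less even picture. With an overlap of 1 to 100 bp, 16 of 40 pairs with both genes called went the same way (40.0%, rho -0.14 over 50 pairs), above 100 and up to 500 bp 32 of 56 (57.1%, rho 0.21 over 111) and above 500 bp 99 of 149 (66.4%, rho 0.32 over 277). Just outside the rule, tail-to-tail neighbours with a gap of 0 to 100 bp went the same way in 43 of 69 pairs (62.3%), those with one above 100 and up to 500 bp in 134 of 259 (51.7%) and those above 500 and up to 1000 bp in 138 of 286 (48.3%). The shortest overlaps therefore stood lower than the shortest gaps, on few pairs, and the differences between classes were not tested.

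**Figure D3:**
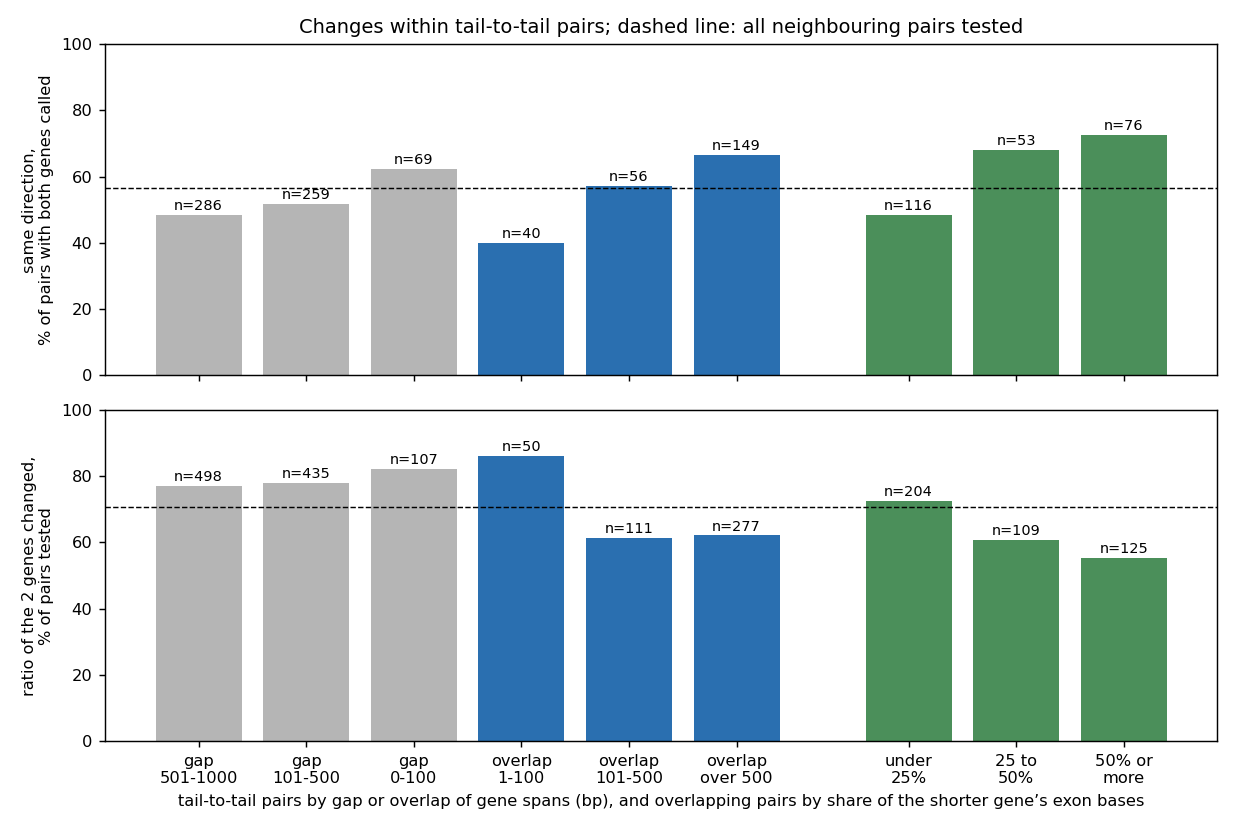
Share of pairs with both genes called that changed in the same direction (top) and share of pairs whose expression ratio changed (bottom), in percent, for tail-to-tail neighbours apart (grey, by gap in bp), overlapping pairs by span overlap in bp (blue) and by share of the shorter gene's exon bases (green). The dashed lines are all neighbouring pairs tested (56.5% and 70.8%) and n is the number of pairs; the same-direction share is 48.3% at exon overlaps under 25% and 72.4% at 50% or more.

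The balance of the 2 strands changed in most pairs. The ratio of the 2 genes' counts was compared between genotypes with each library giving 1 ratio, over all 13544 neighbouring pairs. It changed in 283 of the 438 overlapping pairs (64.6%), against 70.8% of all pairs and 78.0% of tail-to-tail neighbours apart (edgeR quasi-likelihood test, adjusted p threshold 0.05). The plus-strand gene gained on its partner in 152 pairs (34.7% of 438) and the minus-strand gene in 131 (29.9%), where all pairs gave 35.5% for the first gene on the map and 35.4% for the second. Called changes of at least 2-fold occurred in 154 pairs (35.2%) against 44.0% of all pairs, 35.3% of same-strand and 28.9% of head-to-head neighbours. The median absolute change of the log2 ratio was 0.68 over the pairs tested, 0.86 over all neighbouring pairs, 0.67 in same-strand and 0.62 in head-to-head neighbours. It was 0.80 at exon overlaps under 25% of the shorter gene, 0.69 from 25% to under 50% and 0.50 at 50% or more, with 72.5%, 60.6% and 55.2% of pairs called.

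In 48 pairs (11%) the more abundant gene was not the same in both genotypes. In these pairs 1 gene was higher per kb in all WT libraries, the other in all lhp1ab libraries, and the change of the ratio was called. Over all neighbouring pairs this held for 12%. The plus-strand gene led in WT in 22 of the 48 and the minus-strand gene in 26. The genes were called in opposite directions in 27 of the 48, both higher in 7, both lower in 6 and a single gene was called in 8.

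Among pairs called in opposite directions, with each gene at 5 CPM or more in its higher genotype, the largest change of balance was on chromosome 3. It was an exchange (release 4.0 of the melon genome, as all positions here), where the plus-strand gene spans 26991032 to 26991856 and the minus-strand gene 26991826 to 26994023 and the spans share 31 bp. The plus-strand gene, maker-Chr3-exonerate_est2genome-gene-270.0, stood at 5.83, 5.40 and 6.47 CPM per kb in WT and 75.8, 63.7 and 58.5 in lhp1ab. Its partner, maker-Chr3-exonerate_est2genome-gene-270.11, stood at 7.18, 5.91 and 7.66 CPM per kb in WT and 0.541, 0.888 and 0.905 in lhp1ab. Levels were nearly even in WT, whereas every lhp1ab library was far above WT for the first gene and far below it for the second. The plus-strand gene rose by 3.48 (SE 0.12, edgeR adjusted p = 9.53e-10) on the log2 scale, and the partner changed by -3.14 (SE 0.21, edgeR adjusted p = 1.36e-07). The log2 ratio of plus to minus changed by 6.62 (SE 0.21, edgeR adjusted p = 4.82e-08), which is 98.0-fold. Each of these genes also overlaps another gene on the strand opposite to it.

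A like exchange on chromosome 1 started from a strong minus-strand gene. There the plus-strand gene spans 33036068 to 33038702 and the minus-strand gene 33037902 to 33043363, with 143 bp of shared exon bases in an overlap of 801 bp. The minus-strand gene, maker-Chr1-exonerate_est2genome-gene-330.12, with 15 exons, stood at 242, 235 and 249 CPM per kb in WT and 19.9, 20.8 and 18.6 in lhp1ab, and its partner, maker-Chr1-exonerate_est2genome-gene-330.2, stood at 10.7, 9.80 and 10.9 CPM per kb in WT and 58.4, 57.0 and 56.3 in lhp1ab. The genotypes did not overlap for either gene, and the order of the 2 genes was reversed in all libraries of lhp1ab. The minus-strand gene changed by -3.61 (SE 0.07, edgeR adjusted p = 3.33e-11) on the log2 scale and the plus-strand gene by 2.45 (SE 0.07, edgeR adjusted p = 2.01e-10). The ratio changed 66.9-fold.

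Further along chromosome 1, the plus-strand gene spans 35727625 to 35728773 and the minus-strand gene 35727737 to 35735733. A single-exon gene of 1149 bp on the plus strand here faces a gene of 19 exons. The single-exon gene stood at 3.74, 4.71 and 4.12 CPM per kb in WT and 35.2, 30.3 and 28.7 in lhp1ab, and the long gene at 15.2, 15.2 and 14.7 CPM per kb in WT and 4.36, 5.51 and 4.12 in lhp1ab. The single-exon gene was the weaker one in every WT library and the stronger one in every lhp1ab library. It changed by 2.90 (SE 0.11, edgeR adjusted p = 2.18e-09) on the log2 scale, and the long gene by -1.68 (SE 0.10, edgeR adjusted p = 4.48e-08). On chromosome 3, the plus-strand gene spans 3398659 to 3401637 and the minus-strand gene 3400108 to 3402768. These genes changed in opposite directions, which narrowed the gap between them without exchanging their places. The plus-strand gene stood at 0.368, 0.439 and 0.473 CPM per kb in WT and 3.50, 3.98 and 3.48 in lhp1ab, and the minus-strand gene at 159.8, 159.7 and 187 CPM per kb in WT and 65.8, 61.1 and 54.9 in lhp1ab. The minus-strand gene was 364 to 434 times as abundant as its partner in WT and 15.4 to 18.8 times in lhp1ab, and the log2 ratio changed by 4.57 (SE 0.14, edgeR adjusted p = 4.41e-08).

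Other exchanges came mainly from 1 gene of the pair. On chromosome 8, the plus-strand gene spans 3802829 to 3805408 and the minus-strand gene 3802983 to 3806181. The plus-strand gene stood at 16.8, 16.1 and 15.7 CPM per kb in WT and 1.20, 1.32 and 1.52 in lhp1ab, while its partner, which overlaps another gene on its own strand, stood at 10.3, 9.55 and 10.0 CPM per kb in WT and 15.1, 8.54 and 10.9 in lhp1ab. The plus-strand gene fell in every lhp1ab library below all WT libraries, and the libraries of the partner overlapped between genotypes. On chromosome 2, the plus-strand gene spans 16033726 to 16036459 and the minus-strand gene 16035438 to 16040356. Here the plus-strand gene stood at 25.9, 23.2 and 23.7 CPM per kb in WT and 2.19, 2.96 and 1.68 in lhp1ab, and its partner at 8.82, 9.37 and 8.35 CPM per kb in WT and 10.1, 8.54 and 10.4 in lhp1ab, with the genotypes overlapping for the partner only. On chromosome 7, the plus-strand gene spans 20053766 to 20063849 and the minus-strand gene 20063484 to 20068321. The minus-strand gene stood at 19.4, 19.3 and 19.9 CPM per kb in WT and 2.20, 2.24 and 2.41 in lhp1ab, and the plus-strand gene at 14.7, 14.04 and 13.6 CPM per kb in WT and 17.1, 18.02 and 18.01 in lhp1ab. The genotypes did not overlap for either gene: the minus-strand gene fell by 3.10 and the plus-strand gene rose by 0.33 on the log2 scale (edgeR adjusted p = 1.93e-10 and 0.000568). The falling plus-strand genes on chromosomes 8 and 2 changed by -3.59 and -3.40 (edgeR adjusted p = 4.15e-10 and 3.09e-09). The log2 ratios changed by -3.77, -3.52 and 3.42 on chromosomes 8, 2 and 7 (SE 0.21, 0.22 and 0.10; edgeR adjusted p = 8.28e-07, 1.51e-06 and 3.67e-08). The partners on chromosomes 8 and 2 did not pass the test (edgeR adjusted p = 0.31 and 0.21), but both did without lhp1ab replicate 2, at log2 fold changes of 0.40 and 0.23 (edgeR adjusted p = 0.0291 and 0.0354).

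**Figure D4:**
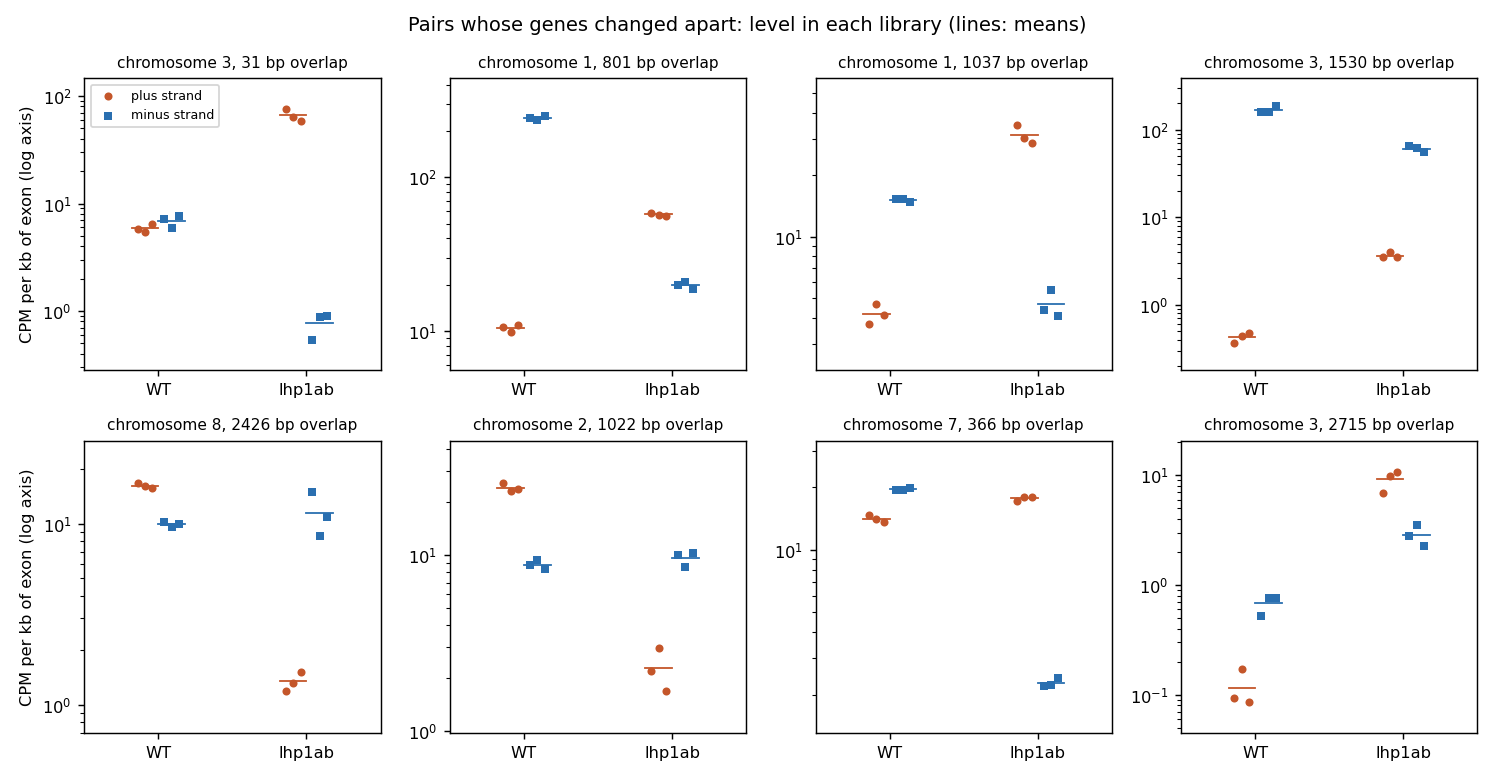
Level of both genes in each library, in CPM per kb of exon on a log axis, for 8 pairs whose genes changed by different amounts (orange circles, plus-strand gene; blue squares, minus-strand gene; lines, means of 3 libraries). In 7 of the 8 panels the higher gene differs between WT and lhp1ab; on chromosome 3 with the 1530-bp overlap the minus-strand gene is higher in both.

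The pairs with the strongest joint rise lay on chromosomes 4, 11 and 3. On chromosome 4, the plus-strand gene spans 32752635 to 32754404 and the minus-strand gene 32753758 to 32756614, sharing 548 exon bases. The plus-strand gene stood at 0.658, 0.922 and 0.687 CPM per kb in WT and 5.53, 5.72 and 3.12 in lhp1ab, and the minus-strand gene at 6.42, 6.53 and 5.68 CPM per kb in WT and 31.8, 29.8 and 29.0 in lhp1ab. Both genes were higher in every lhp1ab library than in any WT library, by 2.67 and 2.28 on the log2 scale (SE 0.26 and 0.076; edgeR adjusted p = 3.93e-06 and 7.59e-10). On chromosome 11, the plus-strand gene spans 30640378 to 30644031 and the minus-strand gene 30643252 to 30645163. The minus-strand gene stood at 259, 242 and 279 CPM per kb in WT and 1363, 1131 and 1149 in lhp1ab, and the plus-strand gene at 30.1, 25.9 and 30.1 CPM per kb in WT and 153, 176 and 96.1 in lhp1ab. The genotypes did not overlap for either gene, the rises were 2.30 for the plus-strand and 2.22 for the minus-strand gene on the log2 scale, and the change of the ratio was 0.04 (SE 0.20, edgeR adjusted p = 0.864).

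The third joint rise, on chromosome 3, was unequal. There the plus-strand gene spans 615164 to 622866 and the minus-strand gene 620152 to 628421, with 14 exons each and 1573 bp of shared exon bases. The plus-strand gene had 6, 11 and 6 counts in WT and 342, 532 and 506 in lhp1ab, and the minus-strand gene 44, 65 and 70 and 179, 248 and 141. The plus-strand gene was the weaker one in WT and the stronger one in lhp1ab in all libraries. It rose by 6.29 (SE 0.26, edgeR adjusted p = 4.23e-09) on the log2 scale, which is 78.3-fold from a low base, and the minus-strand gene by 2.07 (SE 0.19, edgeR adjusted p = 2.49e-06). The log2 ratio changed by 4.22 (SE 0.40, edgeR adjusted p = 2.15e-05).

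The strongest joint falls lay on chromosomes 11, 5 and 7. On chromosome 11, the plus-strand gene spans 19495890 to 19501453 and the minus-strand gene 19500919 to 19501884. The minus-strand gene stood at 219.5, 217 and 225 CPM per kb in WT and 15.2, 13.4 and 12.6 in lhp1ab, and the plus-strand gene at 45.1, 43.8 and 45.5 CPM per kb in WT and 3.54, 4.22 and 2.55 in lhp1ab. Both fell without overlap between genotypes, by 4.01 and 3.69 on the log2 scale (SE 0.080 and 0.12; edgeR adjusted p = 4.33e-11 and 7.37e-10). On chromosome 5, the plus-strand gene spans 25689600 to 25692943 and the minus-strand gene 25692530 to 25697740, the latter with 18 exons. Levels were 9.20, 8.72 and 8.92 CPM per kb in WT and 0.347, 0.490 and 0.462 in lhp1ab for the plus-strand gene and 7.97, 8.02 and 8.18 CPM per kb in WT and 0.930, 0.891 and 0.922 in lhp1ab for its partner. The 2 genes were almost level in WT and both fell, the plus-strand gene further, so that its partner was the higher one in lhp1ab. The log2 ratio changed by -1.22 (SE 0.20, edgeR adjusted p = 0.000605). On chromosome 7, the plus-strand gene spans 17436651 to 17436983 and the minus-strand gene 17436686 to 17437045. These are single-exon genes of 333 and 360 bp that share 298 bp. They stood at 32.5, 32.6 and 29.0 CPM per kb in WT and 3.76, 4.46 and 2.75 in lhp1ab on the plus strand and at 127, 125 and 118 CPM per kb in WT and 11.8, 13.01 and 14.4 in lhp1ab on the minus strand. Both fell in every lhp1ab library, and the ratio changed by 0.16 (SE 0.22, edgeR adjusted p = 0.544).

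The pair with the highest level on its weaker strand also lay on chromosome 11, where the plus-strand gene spans 23150933 to 23152342 and the minus-strand gene 23151655 to 23153231. The minus-strand gene stood at 711, 680.5 and 744 CPM per kb in WT and 92.6, 85.0 and 78.4 in lhp1ab, and the plus-strand gene, with 306 exon bases, at 402, 359 and 414 CPM per kb in WT and 63.5, 68.5 and 35.7 in lhp1ab. In WT counts the minus-strand gene had 20702, 19907 and 23562 and the plus-strand gene 2574, 2315 and 2889, with 198 of its 306 exon bases in the overlap. Both fell in all lhp1ab libraries, by 3.06 and 2.80 on the log2 scale (SE 0.078 and 0.18; edgeR adjusted p = 1.35e-10 and 1.01e-07). The second such pair, on chromosome 9, held a plus-strand gene of 186 exon bases from 17005192 to 17005957 opposite a gene of 19 exons from 17005737 to 17012769. The long gene stood at 241, 269.8 and 217 CPM per kb in WT and 92.5, 100.7 and 109.6 in lhp1ab, and the short gene at 140.1, 131 and 149.6 CPM per kb in WT and 100.7, 108 and 81.3 in lhp1ab. Per kb, the long gene led in WT by 1.45- to 2.06-fold and in lhp1ab the order of the 2 genes varied between libraries. In WT counts the long gene had 13664, 15405 and 13422 and the short gene 546, 513 and 634. Of the 186 exon bases of the short gene, 79 overlap exons of the long one. Both fell, by 1.26 and 0.54 on the log2 scale (edgeR adjusted p = 2.83e-07 and 0.00061), and the log2 ratio changed by 0.72 (SE 0.18, edgeR adjusted p = 0.00571).

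In 5 of these 8 pairs the change of the ratio did not pass the test, with log2 changes of 0.04 to 0.37 and SE of 0.15 to 0.28. These were the rising pairs on chromosomes 4 and 11, the falling pairs on chromosomes 11 and 7 and the pair with the highest weaker level. In all 5 the plus-strand gene was lowest, among the lhp1ab libraries, in replicate 3. The plus-strand gene was lowest there too in the pair on chromosome 9, whose ratio was called, but not in those on chromosomes 3 and 5. The minus-strand gene was also lowest in replicate 3 in the pair on chromosome 4, the strongest fall on chromosome 11 and the pair with the highest weaker level. It was not in the rising pair on chromosome 11 or the falling pair on chromosome 7. Without lhp1ab replicate 3 the log2 ratio changed by 0.58 for the pair on chromosome 4 (edgeR adjusted p = 0.0215), by 0.43 for the strongest fall on chromosome 11 (edgeR adjusted p = 0.0461) and by 0.44 for the pair with the highest weaker level (edgeR adjusted p = 0.00564). The rising pair on chromosome 11 did not pass without it (0.26, edgeR adjusted p = 0.133), nor did the falling pair on chromosome 7. For the strongest fall on chromosome 11 the change also passed with all libraries under limma on log2 ratios (0.47, limma adjusted p = 0.0227).

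**Figure D5:**
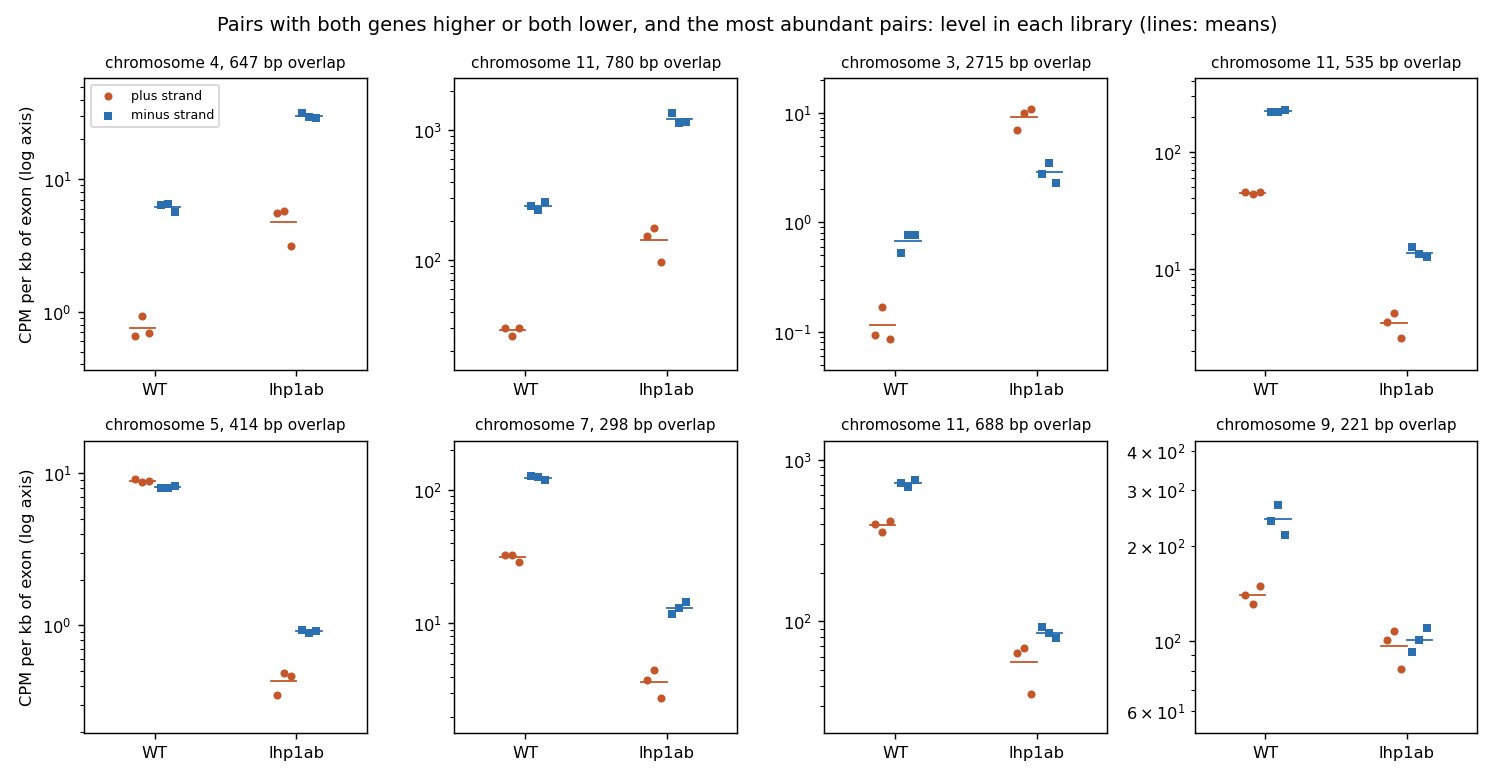
Level of both genes in each library, in CPM per kb of exon on a log axis, for the 3 strongest joint rises, the 3 strongest joint falls and the 2 pairs with the most abundant weaker gene (orange circles, plus-strand gene; blue squares, minus-strand gene; lines, means of 3 libraries). Within each panel both genes lie higher in lhp1ab, or both lower, than in WT.

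The pairs with the longest exon overlaps among those expressed on both strands changed little. The longest, 4256 bp, was on chromosome 7, where the plus-strand gene spans 1209457 to 1216893 and the minus-strand gene 1211909 to 1216913. The plus-strand gene stood at 1.49, 1.48 and 1.48 CPM per kb in WT and 1.40, 1.74 and 1.88 in lhp1ab, and the minus-strand gene at 1.32, 1.68 and 1.53 CPM per kb in WT and 1.20, 1.47 and 1.10 in lhp1ab. The genotypes overlapped for both genes, and neither gene passed the test (log2 fold changes 0.18 and -0.26, SE 0.12 and 0.15, edgeR adjusted p = 0.18 and 0.14), though the plus-strand gene did without lhp1ab replicate 1 (log2 fold change 0.30, edgeR adjusted p = 0.018). The next longest, 2563 bp on chromosome 11, joined a plus-strand gene of 25 exons from 31042771 to 31059266 and a minus-strand gene of 18 exons from 31054857 to 31069896. The plus-strand gene stood at 27.4, 29.9 and 23.4 CPM per kb in WT and 17.3, 27.1 and 29.7 in lhp1ab, and the minus-strand gene at 7.18, 6.99 and 5.95 CPM per kb in WT and 7.91, 11.3 and 8.12 in lhp1ab. The plus-strand gene, which overlaps another gene on the opposite strand as well, overlapped between genotypes, and every minus-strand value was higher in lhp1ab than in WT. The minus-strand gene rose by 0.44 (SE 0.13, edgeR adjusted p = 0.00951) on the log2 scale, which was 0.36 without WT replicate 3 (edgeR adjusted p = 0.0519). The change of the ratio of -0.58 (SE 0.18, edgeR adjusted p = 0.0171) became -0.53 without WT replicate 2 and -0.49 without lhp1ab replicate 2 (edgeR adjusted p = 0.0592 and 0.057).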

How the data were processed

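Poly(A) RNA of leaf was sequenced with a directional kit in 3 WT and 3 lhp1ab libraries, per the labels' protocols. The deposited files hold raw counts per gene over exons, made by the authors with featureCounts 1.6.4 on an annotation lifted onto release 4.0 of the melon genome, reverse-stranded, with mapping quality 30 or more, multi-mapping reads allowed and reads on several genes counted for each, per the file headers. Exon lengths are the deposited lengths in bp, and the submitters' processing notes also name Trimmomatic 0.38, STAR and DESeq2.

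Gene changes were tested with edgeR 4.0.16 (R 4.3.3; quasi-likelihood F-test, two-sided, TMM, default low-count filter, no covariates, Benjamini-Hochberg over 17988 genes). SE is the log2 fold change over the square root of F. Changes over 1.5-fold were tested with glmTreat. Ratios within pairs were tested with the same tool on 12 columns per pair (both genes in 6 libraries) with library as a block, adjusted over 13544 pairs: each gene with the next on its chromosome, plus all overlapping tail-to-tail pairs. Levels use TMM-scaled library totals. Replicates of a genotype differed beyond sampling noise (chi-square per degree of freedom 2.13 to 11.3).

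Members, rules and lists were chosen with earlier results of these data known. Named pairs, each gene at 5 CPM or more in its higher genotype, were the 4 with opposite calls and the largest ratio change, the 3 with the largest joint rise and the 3 with the largest joint fall (by the smaller change), the 3 further pairs with an exchange of the higher gene and the largest ratio change, the 2 with the highest weaker level and the 2 with the longest exon overlap. Without that limit, the 2 pairs with the most counts of 1 gene and a partner under 1% of it were added. Classes by share of the shorter gene's exon bases were added after the data were seen. Sequences of the pairs were not used here. Alternatives were other scalings and filters, DESeq2 1.42.0, limma-voom and limma 3.58.1 on log2 ratios, a replicate block, each library left out, and subsets of pairs.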

Additional observations from a re-analysis of the deposited data

How the results depend on the processing

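Tests, scalings, filters and left-out libraries left most values near those given. Over all versions of the gene test but the 1.5-fold one, 626 to 689 genes of the pairs were called, and with a library left out 67 to 87 pairs had both genes higher, 60 to 73 both lower, 81 to 97 opposite calls and 152 to 165 a single call, and 254 to 301 pairs a changed ratio. Moved by construction were the counts over 1.5-fold, with 343 genes (186 higher, 157 lower), 28 pairs both higher, 24 both lower, 21 opposite and 194 without a call. Restricting to levels within 10-fold in every library, an alternative added after the data were seen, left 62 opposite pairs, 91 with a single call and 100 ratios changed toward the plus strand, from fewer pairs. The WT median absolute log2 ratio of 1.61 became 1.57 with spans overlapping by at least 100 bp. With genes that overlap only each other it became 1.56. Both shifts are from fewer pairs in the same libraries, so the spread between libraries does not gauge them, and the cause was not tested. Replicate numbers do not pair the genotypes in the labels, and same-numbered libraries had deviations that correlated at 0.0035, 0.093 and -0.12; with a replicate block, 660 genes and 272 ratios were called. Of 672 values for named genes and ratios, 662 stayed on the same side of the threshold, 7 passed it only under the alternative and 3 lost it, all 3 on chromosome 11. Changes that did not pass could turn in sign. The ratio of the rising pair on chromosome 11 changed by 0.04 with all libraries and by -0.19 without lhp1ab replicate 2. Depth limits weak partners near the floor of 3 counts.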
